A study of Mus musculus with 32 samples.

Results

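The genes described here are 10 genes of the Bcl2 family, chosen by name: Bax, Bak1, Bbc3, Pmaip1, Bcl2l11, Bid, Bik, Bcl2, Bcl2l1 and Mcl1. They are 10 of the 54532 gene entries in the deposited table, each is listed once, and all 10 passed the filter on low counts in every comparison. Their mRNA was measured by RNA-seq of whole kidney from wild-type C57BL/6 mice, 6 to 8 weeks old, of both sexes. Cisplatin, a DNA-crosslinking chemotherapy drug that injures the kidney tubule, was given as a single intraperitoneal dose of 20 mg/kg. The groups of each sex were a Day 0 group and groups collected on Day 2, Day 3 or Day 5 of treatment. There were 4 mice in each of the 8 groups, so 32 libraries in all, and each replicate was a separate mouse. The labels give no treatment for the Day 0 males but list cisplatin for the Day 0 females, while the study describes the Day 0 animals as healthy. Day 0 was used here as the baseline for each sex.

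Proteins of the Bcl2 family decide whether the outer membrane of the mitochondrion is opened, the step of intrinsic apoptosis that releases cytochrome c. Bax and Bak1 are the effectors that form the opening. Bcl2, Bcl2l1 (Bcl-xL) and Mcl1 hold the effectors in check. The BH3-only proteins, here Bbc3 (Puma), Pmaip1 (Noxa), Bcl2l11 (Bim), Bid and Bik, either bind the inhibitors or activate the effectors. In the kidney, damage to tubule DNA activates p53, and Bbc3, Pmaip1 and Bax are known p53 target genes, as is the cell cycle inhibitor Cdkn1a. The mRNA level is only one layer, because Bid is activated by cleavage, Bax by a change of shape and Mcl1 is controlled by rapid turnover.

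On the GRCm38 coordinates of the deposited table, Bax lies at chr7:45461697-45466898 on the minus strand and Bak1 at chr17:27019810-27029009 on the minus strand. Bbc3 lies at chr7:16308393-16318205 on the plus strand, Bcl2l11 at chr2:128126038-128162547 on the plus strand, Bid at chr6:120891930-120916853 on the minus strand and Bik at chr15:83526862-83544634 on the plus strand. Bcl2 lies at chr1:106538178-106714274 on the minus strand, Bcl2l1 at chr2:152780668-152831728 on the minus strand and Mcl1 at chr3:95658788-95663176 on the plus strand. All 10 are annotated as protein coding. Bak1 shares all 9200 bases of its span with Ggnbp1 on the opposite strand, which took 17959 counts over all libraries against 12380 for Bak1. Bid shares 913 bases with its relative Bcl2l13 on the opposite strand, which took 31250 counts against 42717 for Bid. Whether reads were counted by strand is not given in the sources used here, so reads of these pairs in the shared bases cannot be told apart.

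Because 3 of the members are known p53 targets, the promoters of Bax and Bbc3 are shown beside that of Cdkn1a, the p53 target with the large changes described further on. Each line is the 250 bases before an annotated start (RefSeq, GRCm38.p6), 5′ to 3′ on the strand of the gene, at chr7:45466899-45467148 for Bax, chr7:16309333-16309582 for the first of the 3 listed Bbc3 starts and chr17:29090729-29090978 for Cdkn1a. The Bbc3 window lies inside the span of the gene in the deposited table, and those of Bax and Cdkn1a were taken before the start RefSeq lists. Capitals mark each match to the p53 decamer, the unit that is repeated in a p53 response element.
Bax: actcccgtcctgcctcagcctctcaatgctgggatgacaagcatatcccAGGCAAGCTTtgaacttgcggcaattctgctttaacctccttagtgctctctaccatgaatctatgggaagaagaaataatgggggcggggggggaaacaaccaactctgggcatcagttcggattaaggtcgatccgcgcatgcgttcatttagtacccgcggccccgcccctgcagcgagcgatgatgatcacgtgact
Bbc3: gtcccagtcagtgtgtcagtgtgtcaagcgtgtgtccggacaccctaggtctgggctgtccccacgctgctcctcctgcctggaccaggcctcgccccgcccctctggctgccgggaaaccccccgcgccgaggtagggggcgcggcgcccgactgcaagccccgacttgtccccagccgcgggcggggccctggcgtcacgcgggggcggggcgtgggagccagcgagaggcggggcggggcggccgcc
Cdkn1a: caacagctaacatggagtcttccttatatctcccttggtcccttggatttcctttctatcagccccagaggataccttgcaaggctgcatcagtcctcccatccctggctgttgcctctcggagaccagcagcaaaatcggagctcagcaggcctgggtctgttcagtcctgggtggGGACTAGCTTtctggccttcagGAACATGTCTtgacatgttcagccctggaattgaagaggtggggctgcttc
The Bax window had 1 match, which began 201 bases before the start. The Cdkn1a window had 2, which began 73 and 51 bases before the start, and the Bbc3 window had none. Promoter windows of 300 bases, from 250 before to 50 after a start, were listed for 8 of the 10 genes, as 13 windows, and Bik and Pmaip1 had no entry. The match in Bax was the only 1 in the 13, a share of 7.69%, against 8.36% of the 32851 promoter windows of all genes and 8 of 20 windows (40.0%) of 16 genes of the p53 list used below. A match is a run of letters and not a bound site, and its lack in these windows says nothing of p53 binding elsewhere in the gene.

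The libraries held 16502107 to 35961325 counts. At Day 0, Day 2 and Day 3 genes of the mitochondrial genome took 4.49% to 24% of the counts. At Day 5 they took 42.5% to 79.8% in the 4 male libraries and 9.3% to 77.9% in the 4 female ones, which left as few as 3780528 counts for all other genes, so that Day 5 values rest on fewer counts. The library labelled male Day 5 mouse 1 goes against its label: it held 4153 counts of Xist, a female-expressed RNA, where the other 3 male Day 5 libraries held 59 to 260, together with 387 counts of Y-linked genes, where the other 3 held 447 to 545. Mouse 1 also had 11334153 counts outside the mitochondrial genome, against 3780528 to 4722649 in the other 3, so its share of Y-linked counts was lower still. Other libraries held such counts too, up to 242 of Xist in male Day 0 mice and 5 to 221 of Y-linked genes in female Day 0 mice. The Day 5 counts of members called are given without this library as well, as are the calls lost without it, while ranges, non-overlap counts and the other Day 5 values include it. Summed markers of the proximal tubule, the main site of cisplatin injury, were 9020 to 12100 CPM (counts scaled to a common library size) in male Day 0 kidneys and 713 to 5620 CPM in male Day 5 ones. Neutrophil markers were 0.868 to 1.61 CPM and 9.12 to 201 CPM in the same groups, with 2 of the 6 markers at 0 in all male Day 0 libraries. Erythroid markers were lower in all male Day 2 and Day 3 libraries (19.8 to 221 CPM) than in the male Day 0 ones (483 to 2170 CPM). In females they were 444 to 2690 CPM at Day 0, 34.9 to 113 CPM at Day 2 and 18.8 to 127 CPM at Day 3. Markers of the adrenal cortex, a tissue that borders the kidney, were 2.98 to 233 CPM in female Day 0 libraries and 2.6 to 4.14, 19.3 to 1570 and 400 to 1010 CPM in those of Day 2, Day 3 and Day 5. In males they were 0.73 to 15.3 CPM at Day 0 and 7.92 to 372, 3.49 to 42.6 and 23.6 to 118 CPM on the same 3 days. Summed leukocyte markers were 86.9 to 98.4 CPM in Day 3 males against 125 to 216 CPM at Day 0, and adipocyte markers 152 to 200 CPM against 277 to 1360 CPM. In Day 2 females adipocyte markers were 232 to 328 CPM against 349 to 743 CPM at Day 0. The 3 tubule injury markers summed to 19 to 354 CPM in Day 3 females against 3.45 to 6.96 CPM at Day 0, and all 3 were higher in every mouse. For the adrenal markers at Day 5, 3 of the 4 were higher in every library than in every Day 0 library of the same sex. The part of these shifts in the results below was not tested. In whole kidney, fewer cells of a type and less RNA per cell cannot be told apart.

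The Day 0 level of each gene is given as FPKM, which scales a count by gene length and a factor for each library. These levels spanned a wide range. Bax was highest at 41.4 ± 16.5 FPKM (SD, n = 8 mice, both sexes), followed by Mcl1 at 29.7 ± 3.64 and Bcl2l1 at 26.6 ± 4.29 FPKM. Bid stood at 17.9 ± 2.23, Bik at 10.6 ± 4.36 and Bak1 at 5.55 ± 1.26 FPKM. The other BH3-only genes were low, with Pmaip1 at 3.23 ± 1.93, Bbc3 at 2.43 ± 1.16 and Bcl2l11 at 1.01 ± 0.193 FPKM. Bcl2 itself was lowest at 0.875 ± 0.141 FPKM. Of the neighbours in this order, Bcl2l1 (lowest mouse 21.4 FPKM) and Bid (highest mouse 20.5 FPKM) alone had ranges that did not overlap. Mcl1 and Bcl2l1 were thus the abundant inhibitors in the Day 0 kidney, with every mouse far above the highest level of Bcl2 (1.02 FPKM).

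**Figure D1:**
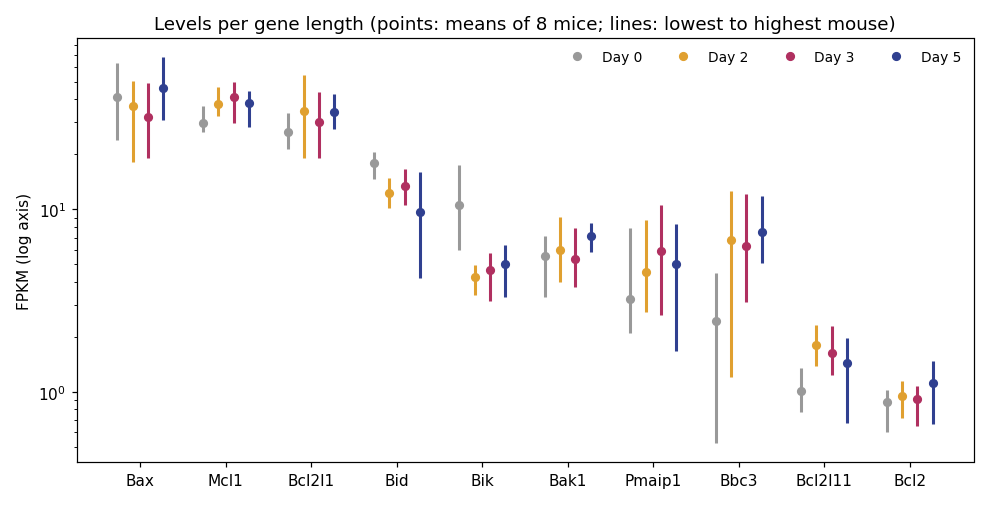
Level of each Bcl2 family gene in FPKM (log axis) by day; points are the mean of 8 mice, both sexes, and lines run from the lowest to the highest mouse. At Day 0 Bax (41.4 FPKM) is highest and Bcl2 (0.875 FPKM) lowest, and most neighbouring ranges overlap.

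Cisplatin kidneys differed from Day 0 kidneys in the BH3-only genes and in Mcl1, and these changes ran both ways. With both sexes in 1 fit, sex as a covariate, Bbc3 rose 2.68-fold, Bcl2l11 1.79-fold and Mcl1 1.28-fold at Day 2, while Bik fell to 0.405 and Bid to 0.69 of their Day 0 level. At Day 3 the same 5 genes passed the test in the same directions, and Pmaip1 rose as well, by 1.81-fold. At Day 5 Bbc3 (3.17-fold higher), Bid (0.514 of Day 0) and Bik (0.476 of Day 0) passed. Neither effector passed in any of these 3 fits, nor did Bcl2 or Bcl2l1. A gene is said to have risen or fallen where edgeR's quasi-likelihood test gave a Benjamini-Hochberg adjusted p under 0.05 over all genes tested. By that rule 5 of 10 members changed at Day 2, 6 at Day 3 and 3 at Day 5, where 27.8%, 39.1% and 18.6% of all genes did. The members that rose were 3, 4 and 1, beside 11.3%, 16.5% and 7.6% of all genes, and those that fell were 2, 2 and 2, beside 16.5%, 22.6% and 11%. Without female Day 0 mouse 4, Pmaip1 also passed at Day 2 and both Pmaip1 and Mcl1 at Day 5, which made 6 and 5 members, beside 37.4% and 26.7% of all genes in those fits. Without the library labelled male Day 5 mouse 1 the Day 5 count was 3, beside 16.1%, with Bbc3 at 1.76, Bid at −1.06 and Bik at −1.07 on the log2 scale (adjusted p = 0.00495, 0.0157 and 0.0103).

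Within 1 sex, with 4 mice against 4, fewer members passed than over both sexes, except in Day 5 males. In males Bid and Bik fell at Day 2 (2 of 10, where 3.16% of all genes changed). At Day 3 Mcl1, Pmaip1 and Bcl2l11 rose and Bid and Bik fell (5 of 10, against 24.5%). At Day 5 Bbc3 rose and Bid and Bik fell (3 of 10, against 19.2%). In females Bbc3 alone passed at Day 2 (1 of 10, against 1.93%), and no member passed at Day 3 (5.54% of all genes did) or Day 5 (0.258%). At an unadjusted p under 0.05, Bbc3, Bcl2l11 and Bik counted at each of these 2 female time points, where 30.7% and 15.7% of all genes did. DESeq2's Wald test called 3 members at female Day 3 and 2 at female Day 5, beside 17.5% and 3.94% of all genes. The study's own threshold also asks for a log fold change over 1.5, with no base given, and was read here as log2 in size. It was passed in these 6 comparisons by Bbc3 in Day 2 females (1 of 10 members, 1.41% of all genes) and Bid in Day 5 males (1 of 10, 7.53%). These counts turned on single mice. In males at Day 2, 0 members passed when Day 0 mouse 1 or 2 or any 1 Day 2 mouse was left out, beside at most 0.382% of all genes. In males at Day 3, 0 passed without mouse 1, 2 or 3 of Day 3 (4.18% to 6.56% of all genes), 1 without Day 0 mouse 2 (14.2%), 2 without Day 3 mouse 4 (7.98%) and 3 without Day 0 mouse 1 (17.8%). In males at Day 5, 1 passed without Day 0 mouse 1, 2 or 3 or Day 5 mouse 2, 3 or 4, beside 5.38% to 19.9% of all genes. In females the mouse that mattered most was Day 0 mouse 4, without which 3, 4 and 3 members passed at Day 2, Day 3 and Day 5, beside 28.3%, 39.1% and 12.6% of all genes. Genes of the mitochondrial genome took 19.7% of the counts of that library, against 4.49% to 10.1% in the other Day 0 females. The part of this difference was not tested. Without the library labelled male Day 5 mouse 1, 2 members passed in males at Day 5, beside 26.0% of all genes. The shares of all genes whose 4 mice did not overlap with the 4 Day 0 mice were 24.4%, 38.3% and 27.3% in males at Day 2, Day 3 and Day 5, and 15.3%, 19.3% and 8.6% in females. Among the members 4, 5 and 3 did not overlap in males and 3, 2 and 2 in females.

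**Figure D2:**
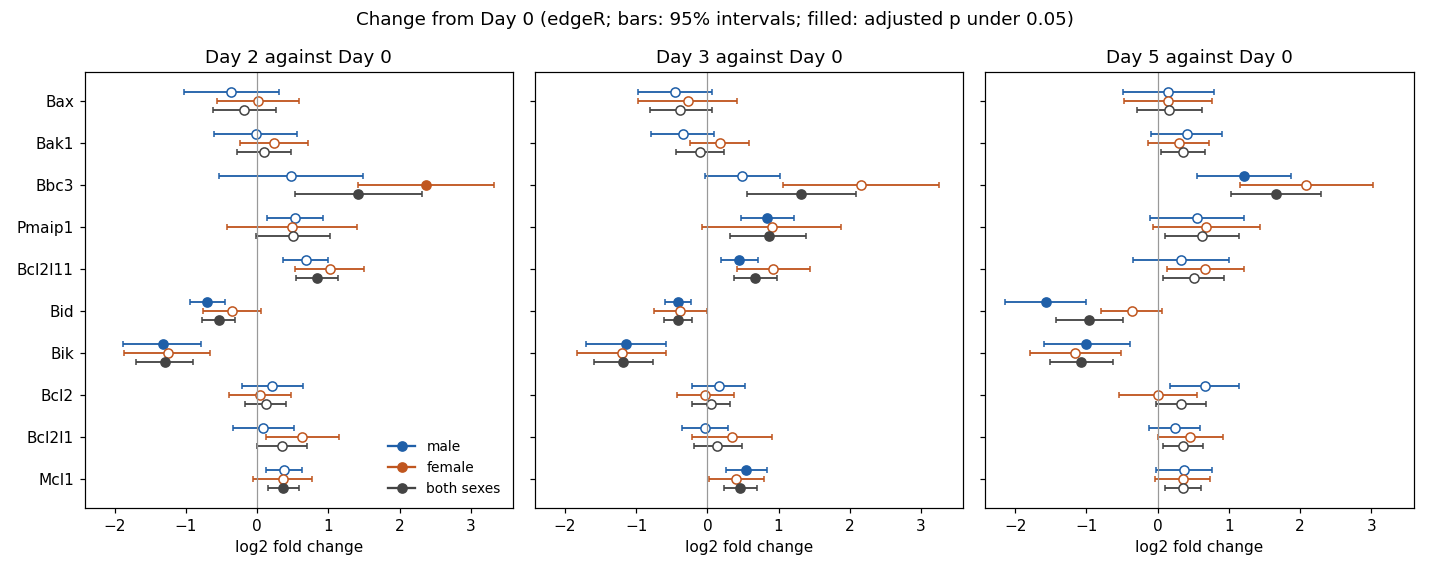
Log2 fold change from Day 0 of each gene at Day 2, Day 3 and Day 5, for males, females and both sexes in 1 fit. Lines are 95% intervals by a normal quantile, narrower than the test implies, and filled points have an adjusted p under 0.05. Bik lies below 0 in all 9 comparisons and Bbc3 above 0, though its value in Day 2 males (0.48) was −0.13 without male Day 2 mouse 4.

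Bbc3 encodes Puma, which binds all inhibitors of the family and is a classic p53 target. In females it measured 4.51, 6.57, 1.08 and 3.56 CPM in the 4 Day 0 mice and 20.7, 23.5, 27.0 and 10.4 CPM in the 4 Day 2 mice. All 4 treated mice were above all 4 Day 0 mice, and the log2 fold change was 2.37 (SE 0.483, adjusted p = 0.0423). The call was lost without Day 0 mouse 1 or 2 or without Day 2 mouse 1, 2 or 3, when the fold change stayed at 2.09 or above (highest adjusted p = 0.157). The Day 3 females measured 22.5, 6.65, 15.9 and 26.2 CPM and the Day 5 females 25.8, 11.9, 14.9 and 15.1 CPM. These too were above every Day 0 female, by a log2 fold change of 2.16 (95% interval 1.06 to 3.25, adjusted p = 0.0516) and of 2.09 (1.16 to 3.02, adjusted p = 0.115). In males Bbc3 measured 4.99, 7.00, 4.74 and 9.72 CPM at Day 0 and 2.60, 8.51, 7.03 and 18.4 CPM at Day 2, and the groups overlapped (log2 fold change 0.48, adjusted p = 0.558). The sign of this value was not stable, at −0.13 (adjusted p = 0.869) without Day 2 mouse 4 and −0.01 (adjusted p = 0.988) by limma voom. Male mouse 1 of Day 2 was below every Day 0 male and mouse 4 above every one. The same mice were lowest and highest of their group for Cdkn1a, at 10.4 and 257 CPM against 8.30 to 12.8 CPM at Day 0. The Day 3 males measured 11.8, 7.99, 9.91 and 7.58 CPM. At Day 5 the males measured 10.7, 13.1, 23.2 and 11.5 CPM, all above Day 0, and Bbc3 rose by 1.21 on the log2 scale (SE 0.336, adjusted p = 0.0348). Without the library labelled male Day 5 mouse 1 this was 1.35 (adjusted p = 0.023). It was lost without Day 0 mouse 1, 2 or 3 or Day 5 mouse 2, 3 or 4 (lowest fold change 0.89, highest adjusted p = 0.105). With both sexes the rise at Day 2 (1.42, adjusted p = 0.0289) was lost when male Day 2 mouse 4 was left out (1.27, adjusted p = 0.0794), and also without female Day 0 mouse 1.

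Bik encodes a BH3-only protein of the endoplasmic reticulum and was the member with the most even decrease. It measured 11.8, 18, 27.3 and 12.1 CPM in the Day 0 males and 7.26, 6.51, 6.95 and 6.62 CPM in the Day 2 males. The Day 3 males measured 6.72, 9.46, 7.10 and 8.21 CPM, and the Day 5 males 8.34, 8.62, 6.93 and 9.55 CPM. No treated male reached the lowest Day 0 male, and the log2 fold changes were −1.33 (SE 0.278, adjusted p = 0.0446), −1.14 (SE 0.285, adjusted p = 0.0257) and −1.0 (SE 0.307, adjusted p = 0.0484). Without the library labelled male Day 5 mouse 1 the last was −0.97 (adjusted p = 0.0689). The male calls were fragile: 2, 3 and 1 of 8 fits that left out 1 mouse kept them, though the fold change was −1.04, −0.82 and −0.67 or lower in all (highest adjusted p = 0.145, 0.0835 and 0.127). The fits that kept them left out Day 0 mouse 3 or 4 at Day 2, Day 0 mouse 1, 3 or 4 at Day 3, and Day 0 mouse 4 at Day 5. In females Bik measured 13.7, 17.0, 25.9 and 9.55 CPM at Day 0, 7.00, 5.45, 7.17 and 8.01 CPM at Day 2, 6.89, 7.77, 5.08 and 9.26 CPM at Day 3, and 8.96, 5.05, 7.51 and 7.98 CPM at Day 5. The treated females were again all below Day 0, with log2 fold changes of −1.26, −1.20 and −1.16 (adjusted p = 0.0537, 0.0535 and 0.176). In the fits with both sexes, the decrease kept an adjusted p under 0.05 in each of the 16 fits that left out 1 mouse, at every day.

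Bid encodes the BH3-only protein that caspase-8 cleaves, and so ties death receptors to the mitochondrion. Day 0 males measured 68.0, 74.9, 65.0 and 67.8 CPM. Day 2 males measured 40.7, 46.5, 43.7 and 37.6 CPM, and Day 3 males 52.5, 51.0, 48.5 and 54.6 CPM. Both groups lay wholly below Day 0, and Bid fell by 0.70 (SE 0.124, adjusted p = 0.035) and by 0.42 (SE 0.0939, adjusted p = 0.019) on the log2 scale. The Day 2 call was kept without Day 0 mouse 3 or 4 and lost without any other mouse (−0.75 to −0.66, highest adjusted p = 0.131), and the Day 3 call was kept without Day 0 mouse 1, 3 or 4 and lost without any other (−0.44 to −0.38, highest adjusted p = 0.0802). The Day 5 males measured 37.8, 21.4, 15.5 and 14 CPM, where the library with 37.8 CPM is mouse 1, the one that goes against its label. The Day 5 decrease was the largest of any member in males, −1.57 on the log2 scale (SE 0.293, adjusted p = 0.012), and −1.94 (adjusted p = 0.000536) without that library, and all 8 fits that left out 1 mouse kept it. In females the level was 52.1 to 73.3 CPM at Day 0, 40.1 to 54.5 CPM at Day 2, 37.7 to 59.3 CPM at Day 3 and 35.1 to 58.9 CPM at Day 5. These ranges overlapped, and the changes of −0.36, −0.38 and −0.36 did not pass (adjusted p = 0.296, 0.199 and 0.428). Bcl2l13, the gene that overlaps Bid, measured 21.5 to 43.5 CPM at Day 0 and 23.3 to 35.7 CPM at Day 5 in males.

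Bcl2l11 encodes Bim, which activates Bax and Bak1 directly and is controlled by Foxo3 among other factors. In males it measured 8.95, 8.50, 8.39 and 7.13 CPM at Day 0, 11.3, 13.1, 13 and 15 CPM at Day 2, and 11.8, 10.2, 11.8 and 11.2 CPM at Day 3. The treated males of both days were all above Day 0, by 0.68 (SE 0.163, adjusted p = 0.0535) and 0.45 (SE 0.132, adjusted p = 0.0396) on the log2 scale. The Day 3 call was kept without Day 0 mouse 3 or 4 and lost without any other mouse (0.39 to 0.50, highest adjusted p = 0.117). In females it measured 6.39, 6.52, 8.92 and 10.9 CPM at Day 0 and 15.3, 17.8, 19.0 and 14.2 CPM at Day 2. These groups did not overlap either (log2 fold change 1.02, SE 0.248, adjusted p = 0.0537). At Day 3 the females measured 18.4, 10.4, 14.9 and 18.9 CPM, with mouse 2 inside the Day 0 range (0.92, adjusted p = 0.0617). With both sexes Bcl2l11 rose by 0.84 at Day 2 (adjusted p = 0.00122) and 0.67 at Day 3 (adjusted p = 0.00361). At Day 5 the males spread from 5.2 to 15.6 CPM and the females from 9.47 to 15.4 CPM, and the change of 0.51 over both sexes did not pass (adjusted p = 0.113, and 0.39 with adjusted p = 0.244 without the library labelled male Day 5 mouse 1).

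Pmaip1 encodes Noxa, which binds Mcl1 and marks it for breakdown. In males it measured 5.97, 5.70, 6.50 and 8.28 CPM at Day 0, 8.22, 11.1, 8.84 and 9.77 CPM at Day 2, and 15.1, 11.1, 10.8 and 10.4 CPM at Day 3. All Day 3 males were above Day 0 and Pmaip1 rose by 0.84 on the log2 scale (SE 0.19, adjusted p = 0.0191), a call lost without Day 3 mouse 1, 2 or 3 (lowest 0.71, highest adjusted p = 0.0583). The Day 2 difference of 0.53 did not pass (adjusted p = 0.121). In females it measured 7.72, 7.01, 6.91 and 21.1 CPM at Day 0, 7.49, 19.8, 23.3 and 9.46 CPM at Day 2, and 28.5, 7.06, 19.7 and 25.2 CPM at Day 3. Mouse 4 of Day 0 was close to the higher treated females and the groups overlapped. The Day 3 change in females was 0.90 (95% interval −0.08 to 1.87, adjusted p = 0.246), and 1.47 (adjusted p = 0.0265) without that Day 0 mouse. At Day 5 the males measured 4.21 to 12.6 CPM and the females 14.6 to 22.4 CPM, and the change over both sexes was 0.62 (adjusted p = 0.104), or 0.55 (adjusted p = 0.182) without the library labelled male Day 5 mouse 1.

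Of the inhibitors Bcl2, Bcl2l1 and Mcl1, only Mcl1 rose against Day 0. Its protein is short-lived and is needed for survival in many cell types. The gene measured 101, 93.9, 89.0 and 101 CPM in Day 0 males, 118, 125, 112 and 140 CPM in Day 2 males and 175, 123, 143 and 120 CPM in Day 3 males. Treated and Day 0 males did not overlap on either day. The log2 fold change was 0.38 at Day 2 (SE 0.13, adjusted p = 0.102) and 0.54 at Day 3 (SE 0.144, adjusted p = 0.0297), where Mcl1 rose 1.46-fold. That call was lost without Day 0 mouse 1 or 2 or Day 3 mouse 1, 2 or 3 (lowest 0.42, highest adjusted p = 0.0881). Females measured 103, 96.1, 112 and 126 CPM at Day 0, 118, 162, 156 and 126 CPM at Day 2, and 160, 102, 151 and 171 CPM at Day 3. The female groups overlapped, and the changes of 0.36 and 0.40 did not pass (adjusted p = 0.305 and 0.193). Over both sexes Mcl1 rose by 0.36 at Day 2 (adjusted p = 0.022) and 0.46 at Day 3 (adjusted p = 0.00648), and the 0.36 of Day 5 did not pass (adjusted p = 0.0597), nor did 0.33 (adjusted p = 0.108) without the library labelled male Day 5 mouse 1.

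The other 2 inhibitors showed no change that passed against Day 0. Bcl2l1 measured 102 to 131 CPM in Day 0 males and 88.5 to 178, 93.6 to 148 and 122 to 146 CPM in males of Day 2, Day 3 and Day 5. In females it measured 98.7 to 158 CPM at Day 0 and 139 to 256, 88.1 to 208 and 136 to 200 CPM after cisplatin. Its change over both sexes was 0.35 at Day 2 (95% interval 0.00 to 0.70, adjusted p = 0.146) and 0.36 at Day 5 (0.08 to 0.63, adjusted p = 0.0869). In Day 2 females its change was 0.63 (0.12 to 1.15, unadjusted p = 0.0345, adjusted p = 0.164), and in Day 2 males 0.08 (−0.34 to 0.51, adjusted p = 0.814). Bcl2 lay between 5.44 and 13.1 CPM in all 32 libraries. Its change over both sexes was 0.12 at Day 2 (−0.17 to 0.40) and 0.05 at Day 3 (−0.22 to 0.32). In males Bcl2 measured 13.1, 12.0, 12.9 and 8.70 CPM at Day 5 against 7.22, 8.65, 5.44 and 9.61 CPM at Day 0, which did not pass (0.66, adjusted p = 0.0845, and 0.62, adjusted p = 0.132, without the library labelled male Day 5 mouse 1).

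No change of an effector against Day 0 passed. Bax measured 42.0, 52.6, 99.1 and 46.5 CPM in Day 0 males and 63.9, 98.7, 85.4 and 38.1 CPM in Day 0 females. After cisplatin it lay between 29.2 and 86.9 CPM in males and between 30.5 and 110 CPM in females. Its change over both sexes was −0.18 at Day 2 (95% interval −0.62 to 0.27), −0.38 at Day 3 (−0.81 to 0.06) and 0.16 at Day 5 (−0.29 to 0.62). Within 1 sex its 6 intervals were wider and reached from −1.03 (Day 2 males) to 0.79 (Day 5 males). Bak1 measured 7.88 to 16.4 CPM in Day 0 males and 10.9 to 17.4 CPM in Day 0 females, and 9.26 to 19.4 and 12.1 to 22.5 CPM after cisplatin. Its change over both sexes was 0.09 at Day 2, −0.11 at Day 3 and 0.35 at Day 5 (adjusted p = 0.743, 0.643 and 0.129).

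**Figure D3:**
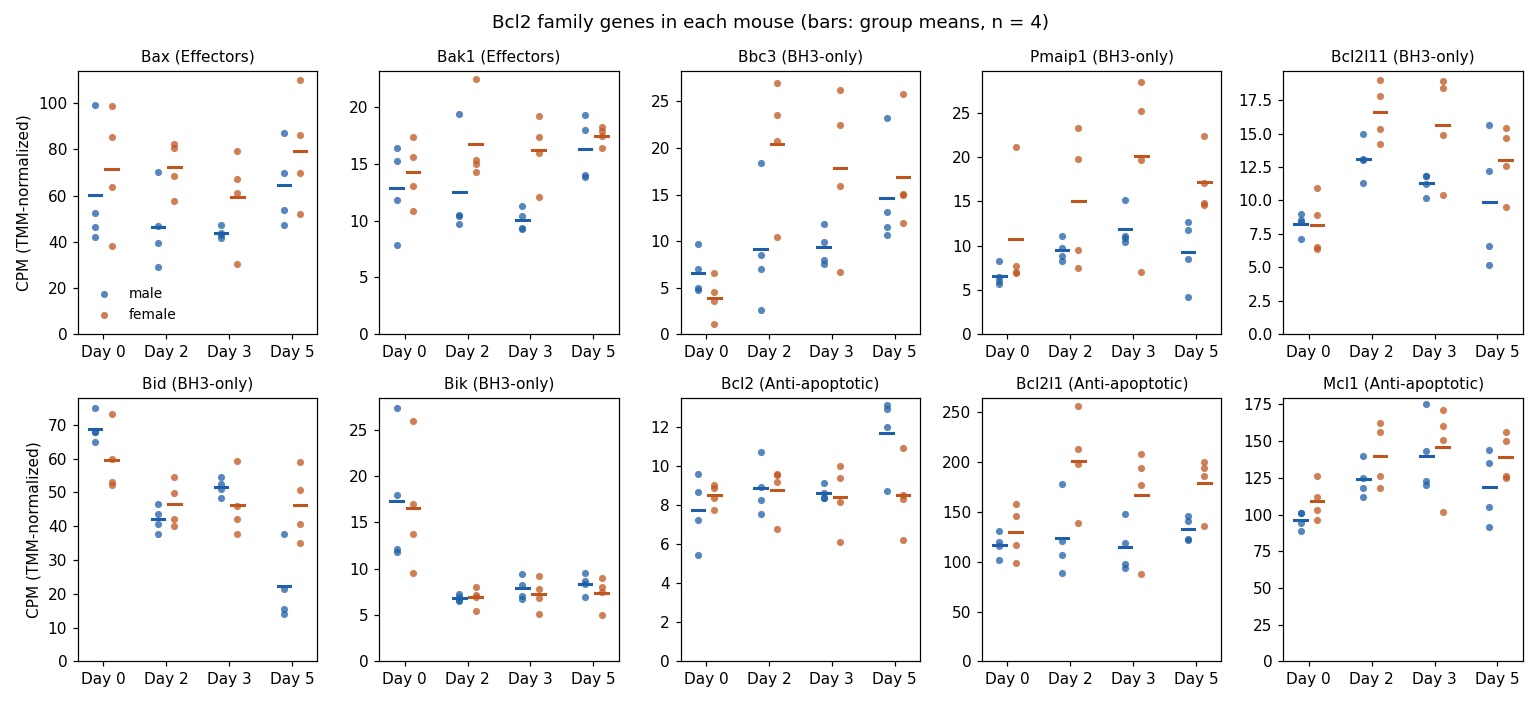
Normalised read count (CPM) of each of the 10 genes in every mouse, by day and sex; points are mice and bars are group means (n = 4). Bik is below its Day 0 range in all treated mice of both sexes, and Bbc3 is above it in all treated females.

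Between the treated days, the members differed in males from Day 3 to Day 5. Bak1 rose by 0.78 on the log2 scale (SE 0.157, adjusted p = 0.00717), Bax by 0.64 (SE 0.188, adjusted p = 0.0256) and Bcl2 by 0.53 (SE 0.155, adjusted p = 0.0264), while Bid fell by 1.12 (SE 0.269, adjusted p = 0.013). That was 4 of 10 members where 37.9% of all genes changed, a share near this background. Bak1 measured 11.3, 9.26, 10.4 and 9.33 CPM at Day 3 and 13.9, 18, 19.3 and 14 CPM at Day 5, with no overlap (41.5% of all genes had none). The Bax ranges, 41.5 to 47.3 CPM and 47.1 to 86.9 CPM, overlapped slightly. Without the library labelled male Day 5 mouse 1 these 4 changes were 0.84, 0.70, 0.45 and −1.53, and Bbc3 passed as well (0.84, adjusted p = 0.0179), beside 55.2% of all genes. Bak1 and Bid were kept in all 8 fits that left out 1 mouse, Bax was lost without Day 3 mouse 2, 3 or 4 or Day 5 mouse 4 (lowest 0.45), and Bcl2 was kept only without Day 5 mouse 1 or 4 (0.45 to 0.64). Between Day 2 and Day 3 no member passed in either sex, nor did any other gene (0% of all genes), and at an unadjusted p under 0.05 there was 1 member in males, Bid, and 0 in females, beside 8.69% and 3.99% of all genes. Between Day 3 and Day 5 in females no member and 0% of all genes passed, and 0 members had an unadjusted p under 0.05, beside 11.7% of all genes.

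Male and female kidneys were then compared at each time. At Day 0 no member differed (0 of 10, where 0.449% of all genes did) and 0 had an unadjusted p under 0.05 (8.04% of all genes). At Day 2 none passed (1.47% of all genes did), though Bbc3, Bcl2l11, Bcl2l1 and Bax had an unadjusted p under 0.05 (15% of all genes), all lower in males, and 2 members passed without male Day 2 mouse 4, beside 3.35% of all genes. At Day 3 Bak1 was lower in males, at 9.26 to 11.3 CPM against 12.1 to 19.2 CPM in females, by 0.71 on the log2 scale (SE 0.141, adjusted p = 0.00797). Bak1 did not pass in a single fit over all 8 groups. In the main fit it was 1 of 10 members, where 21.3% of all genes differed and 25.7% did not overlap. This count rested on 1 mouse: without female Day 3 mouse 2 it was 7 of 10, where 34.6% of all genes differed, with Bax, Bak1, Bbc3, Pmaip1, Bcl2l11 and Bcl2l1 lower and Bid higher in males. That female measured 6.65 CPM of Bbc3 and 22 CPM of Cdkn1a, each the lowest of its group, whose other mice measured 15.9 to 26.2 and 288 to 347 CPM. At Day 5 none passed (0.276% of all genes did), 2 had an unadjusted p under 0.05 (Bid and Pmaip1, beside 20.3% of all genes), and 1 passed without the library labelled male Day 5 mouse 1, beside 17.0% of all genes. Pmaip1 was lower in every male (4.21 to 12.6 CPM) than in every female (14.6 to 22.4 CPM), without passing (−0.83, adjusted p = 0.186), at a time when 8.85% of all genes did not overlap.

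Whether the response itself differed between the sexes was tested as an interaction of sex and day. No member passed at Day 2, Day 3 or Day 5, where 0%, 0.0114% and 0.243% of all genes did. The Bbc3 response was smaller in males by 1.91 on the log2 scale at Day 2 (95% interval −3.37 to −0.46, unadjusted p = 0.0199, edgeR adjusted p = 1) and by 1.68 at Day 3 (−2.94 to −0.43, unadjusted p = 0.0188, adjusted p = 0.589). That of Bid at Day 5 differed by −1.23 (−1.95 to −0.50, unadjusted p = 0.00414, adjusted p = 0.137). No other member had an unadjusted p under 0.05, so the count was 1 of 10 at each day, beside 4.23%, 7.11% and 15.2% of all genes. At Day 5, 1 member passed without the library labelled male Day 5 mouse 1, beside 6.74% of all genes. A difference between the sexes in the Bbc3 response was therefore not established, although the intervals are wide and reach far from 0. By contrast the interaction for Bik was −0.09 at Day 2 (−0.90 to 0.72) and 0.04 at Day 3 (−0.81 to 0.89).

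The genes around the family were described by lists, beside the shares of all genes given above. Those shares were split into higher and lower only over both sexes, and within 1 sex they count both directions together. Of 19 genes of the p53 and damage signal, 11 rose and 0 fell over both sexes at Day 2, 11 and 0 at Day 3, and 10 and 0 at Day 5. The median log2 fold change of the list was 1.13, 0.99 and 0.70, against a median of all genes of 0.02 to 0.05 in the comparisons with Day 0. Cdkn1a, which halts the cell cycle, had the values 8.30, 10.6, 8.83 and 12.8 CPM in Day 0 males and 145, 54.7, 90.3 and 54.9 CPM in Day 3 males, a rise of 3.09 on the log2 scale (adjusted p = 0.00352). The Day 2 males measured 10.4, 88.9, 48.7 and 257 CPM, with mouse 1 inside the Day 0 range, and their change of 3.33 did not pass (adjusted p = 0.0535). Cdkn1a rose by 3.19 in Day 5 males and by 4.32, 4.20 and 3.85 in females at the 3 days. Mdm2, the ubiquitin ligase of p53, rose by 1.22, 1.35 and 0.99 in males and 1.86, 1.94 and 1.71 in females at Day 2, Day 3 and Day 5. Ccng1, a cyclin under p53 control, rose by 1.47 and 1.78 in males at Day 2 and Day 3 and by 2.51, 2.26 and 2.05 in females at the 3 days, and its 0.96 in Day 5 males did not pass. Eda2r, a receptor of the TNF receptor family, rose by 4.32 to 4.71 in males and 4.80 to 5.64 in females, from 0 to 11 counts in a Day 0 male library and 0 to 35 in a Day 0 female one, so that its fold change is imprecise. Trp53 itself passed in no comparison with Day 0 (−0.07 to 0.70).

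Other genes of this list passed as well. Trp53inp1 rose in males by 1.25 at Day 2 and 1.71 at Day 3, and in females by 2.61, 2.44 and 2.11 at the 3 days. Aen, a nuclease, rose by 1.61 in Day 3 males and by 3.07, 2.84 and 2.64 in females. Zmat3, an RNA-binding protein, rose by 1.16 in Day 3 males and by 2.08, 1.74 and 1.49 in females. Phlda3, an Akt inhibitor, rose by 1.66 and 1.52 in Day 2 and Day 5 females and by 1.54 in Day 5 males (1.71 without the library labelled male Day 5 mouse 1). Pidd1, a death domain protein, rose by 1.67 and 1.54 in Day 2 and Day 3 females. Mdm4, a relative of Mdm2, rose by 1.36 and 0.91 in Day 3 and Day 5 males, the latter being 0.84 (adjusted p = 0.0615) without that library. Ppm1d, a phosphatase of the damage signal, and Sesn1 rose in males by 0.70 and 0.85 at Day 5 alone of the 3 days. Atr, a damage kinase, rose by 0.96 in Day 3 males and Sesn2 by 1.29 in Day 2 females. Chek1, a checkpoint kinase, fell by 1.79 in Day 3 males, at 4 to 15 counts in a library. Within 1 sex the list had 4, 9 and 7 genes higher and 0, 1 and 0 lower in males at the 3 days, and 10, 8 and 8 higher and 0 lower in females. At Day 5, without the library labelled male Day 5 mouse 1, 8 rose over both sexes and 5 in males, and Mdm2 in males was 0.81 (adjusted p = 0.0552).

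Other members of the family outside the 10 were described as well. Of 13 listed, 7 to 11 passed the filter in each comparison with Day 0. Bmf, a BH3-only gene, measured 6.24, 7.95, 6.46 and 5.75 CPM in Day 0 males and 10.4, 12.4, 11.4 and 16.4 CPM in Day 2 males. It rose in males at all 3 days by 0.95, 0.85 and 1.14 (adjusted p = 0.0446, 0.0118 and 0.0137), and over both sexes by 0.82, 0.76 and 1.08. Bad, the BH3-only gene controlled by growth factor kinases, fell by 0.94 in Day 3 males (adjusted p = 0.0274) and over both sexes by 0.75, 0.90 and 0.60. At Day 3 over both sexes Bcl2l2, an inhibitor, rose by 0.66, and Bok, a relative of the effectors, and Bcl2l14 fell by 0.56 and 0.67. Bcl2a1b and Bcl2a1d, near-identical copies expressed in leukocytes, fell over both sexes at Day 2 and Day 3, and Bcl2a1b in Day 2 females, where it had 1 to 2 counts in a library against 13 to 44 at Day 0. Reads of such copies may be split between them, and no fold is given. Summed leukocyte markers measured 113 to 167 CPM in Day 0 females and 68.7 to 111 CPM in Day 2 females, and their part in this was not tested. Over both sexes 1 rose and 3 fell at Day 2, 2 and 5 at Day 3, and 1 and 1 at Day 5. The Day 5 value of Bad was −0.59 (adjusted p = 0.0717) without the library labelled male Day 5 mouse 1, and then 1 rose and 0 fell.

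Downstream of the membrane, 17 genes were tested. Over both sexes 3 rose and 3 fell at Day 2, 5 and 5 at Day 3, and 4 and 2 at Day 5, with medians of 0.05, −0.10 and −0.16. Apaf1, the scaffold of the apoptosome, measured 3.15, 4.05, 5.66 and 4.89 CPM in Day 0 males and 10.1, 6.79, 10.3 and 7.70 CPM in Day 3 males, a rise of 0.97 (adjusted p = 0.0248), and over both sexes it rose by 1.25, 1.12 and 0.92. Cycs, cytochrome c, fell in males by 0.87, 0.85 and 0.84 and over both sexes by 0.81, 0.73 and 0.73, and its value in Day 5 males was −0.75 (adjusted p = 0.065) without the library labelled male Day 5 mouse 1. Without that library 3 genes of this list rose and 2 fell over both sexes at Day 5. Diablo, which frees caspases from their inhibitors, fell by 1.45 in Day 3 females. Birc3, an inhibitor of apoptosis protein, rose by 1.07 in males and 1.52 in females at Day 3. Birc5, a mitotic member of that family, fell by 1.53 over both sexes at Day 3. Casp9, the initiator caspase of the apoptosome, passed in no comparison with Day 0, at −0.23 to 0.29.

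Of 9 genes of the death receptor arm that reaches Bid, 3 rose and 1 fell over both sexes at Day 2 and again at Day 3, and 2 rose and 0 fell at Day 5. Tnfrsf10b, the TRAIL receptor, measured 2.21, 1.95, 2.11 and 3.18 CPM in Day 0 females and 11.4, 16.6, 17.6 and 8.19 CPM in Day 2 females. It rose by 2.51 at Day 2 (adjusted p = 0.00769) and 2.21 at Day 3 (adjusted p = 0.0474) in females, and by 1.09 in Day 3 and 1.12 in Day 5 males. Its value in Day 5 males was 1.09 (adjusted p = 0.0652) without the library labelled male Day 5 mouse 1. Tnfrsf1a, a TNF receptor, rose over both sexes by 0.63, 0.62 and 0.61. Fas did not pass (0.10 to 0.77). Cflar, an inhibitor of caspase-8, rose over both sexes by 0.40 and 0.50 at Day 2 and Day 3, and Traf2, an adaptor of TNF receptors, fell by 0.69 and 0.72. Of 8 other inputs to the family, 3 rose and 2 fell over both sexes at Day 2, 3 and 1 at Day 3, and 1 and 0 at Day 5, with medians of 0.27, 0.26 and 0.28. Within males 1 rose and 1 fell at Day 2, 2 and 1 at Day 3, and 1 and 0 at Day 5, and in females 1 rose at Day 2 and none passed later. Foxo3 rose by 1.15 and 1.06 in Day 2 and Day 3 males (adjusted p = 0.031 and 0.0173) and by 1.02 in Day 2 females (adjusted p = 0.0499). Huwe1, a ubiquitin ligase of Mcl1, rose by 0.94 in Day 3 males, and Atf4, a stress response factor, fell by 0.83 and 0.75 in Day 2 and Day 3 males. Fbxw7, another ubiquitin ligase of Mcl1, rose by 0.80 in Day 5 males (adjusted p = 0.0353), and by 0.92 (adjusted p = 0.0175) without the library labelled male Day 5 mouse 1, when Ddit3 passed as well (1.32, adjusted p = 0.0144). Over both sexes Foxo1 rose by 0.45 and 0.34 at Day 2 and Day 3, and Ddit3 fell by 0.53 at Day 2.

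**Figure D4:**
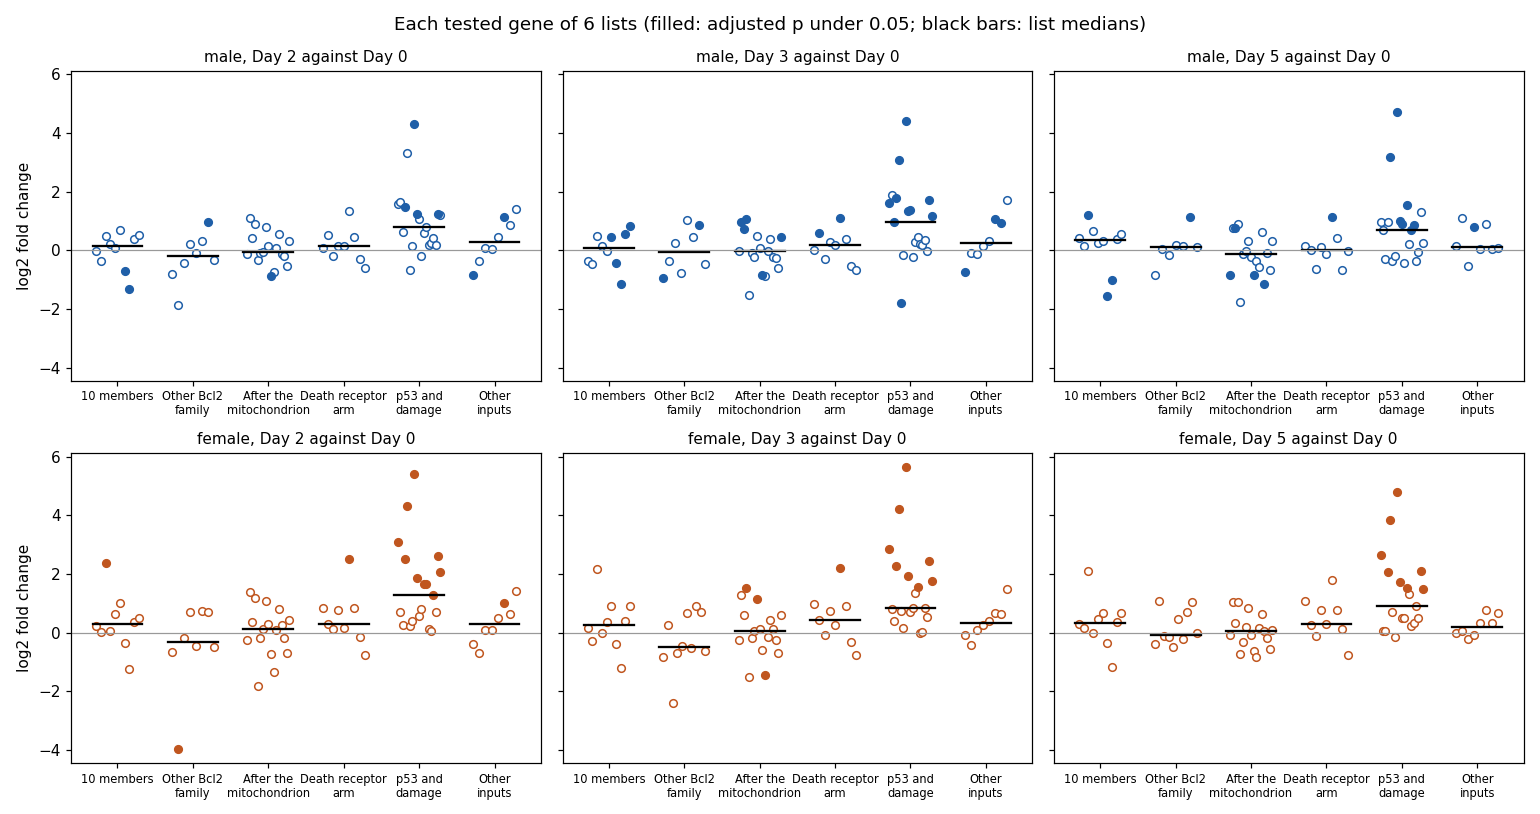
Log2 fold change from Day 0 of each tested gene of the 6 lists, for males and females at Day 2, Day 3 and Day 5; points are genes and the black bar is the median of the list. The p53 and damage signal list has the medians 0.81, 0.96 and 0.70 in males and 1.29, 0.82 and 0.89 in females.

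The members varied together in part. Over the 24 libraries of Day 0, Day 2 and Day 3, which share the day and depth differences described above, the highest Pearson correlations between members were those of Mcl1 with Pmaip1 (0.865) and Mcl1 with Bcl2l11 (0.816). Bik correlated inversely with Bcl2l11 (−0.727) and Mcl1 (−0.696). Bcl2l1 correlated with Bak1 (0.742), Bax (0.731) and Bbc3 (0.729), while Bak1 and Bax correlated at 0.436. Of all protein-coding genes, those most like Bbc3 were Ei24 (0.904, and 0.738 over all 32 libraries), Mapkapk3 (0.902 and 0.869) and Fam110c (0.90 and 0.836). Those most like Mcl1 were Btg2 (0.926 and 0.865), Rnd3 (0.901 and 0.81) and Nfkbiz (0.898 and 0.768), and those most like Pmaip1 were Klf6 (0.919 and 0.752), Ifrd1 (0.917 and 0.554) and Rcbtb1 (0.877 and 0.716). Bcl2l11 was most like Slc19a2 (0.916 and 0.872), Tnfrsf10b (0.913 and 0.75) and Cnksr3 (0.906 and 0.857). Bik was most like Cks2 (0.958 and 0.67), Hspe1 (0.956 and 0.94) and 1500011K16Rik (0.956 and 0.919), and Bid like Nmnat3 (0.88 and 0.874), Lurap1l (0.867 and 0.371) and Gnpda1 (0.857 and 0.935).

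The effectors and the other inhibitors had other neighbours. Bax was most like Pold4 (0.937 and 0.90), Lmna (0.93 and 0.904) and Pmm1 (0.928 and 0.908), and Bak1 like Ccdc71 (0.904 and 0.785), Grb2 (0.901 and 0.781) and Fbxo2 (0.892 and 0.753). Bcl2l1 was most like Rbpms (0.918 and 0.823), Tmbim1 (0.914 and 0.611) and Cbr3 (0.909 and 0.911). Bcl2, the least abundant member, had no close neighbour, the nearest being Zfp457 (0.725 and 0.204), Spdl1 (0.707 and 0.319) and Ttc9c (0.701 and 0.279), values that did not carry over to all 32 libraries.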

How the data were processed

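Kidney RNA of 32 mice was sequenced by the authors as paired 150 bp reads. The deposited table holds counts per gene, not normalized, and FPKM values per gene that the authors computed from them. The study's methods name GRCm38, whose coordinates the table carries, while the submitters' processing notes name GRCm39, mm39, HTSeq and DESeq2, without versions. The aligner settings and strandedness are not given in the sources used here.

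Counts were tested in R 4.3.3 with edgeR 4.0.16 (TMM scaling, filterByExpr, robust quasi-likelihood test, Benjamini-Hochberg adjusted p under 0.05), each comparison on its own groups. CPM per mouse used TMM factors over 32 libraries and 18220 genes. Intervals (95%) are the log2 fold change ± a normal quantile times its SE. Unlike the test they do not widen for the few mice, so they are narrower than it implies and can leave out 0. For Bid in Day 3 females the interval was −0.75 to −0.01, where the quasi-likelihood test gave an unadjusted p of 0.0724. The study's own threshold adds a log fold change over 1.5, read here as an absolute log2 value because the study gives no base. FPKM served only to compare levels between genes. DESeq2 1.42.0, limma 3.58.1, other filters, a replicate block and leaving out each mouse were alternatives. The steps were tested on simulated data. The members and lists were chosen with earlier results of these data known, and the fits with both sexes were added after values were seen. Named were all members, fixed pathway genes (Apaf1, Cycs, Casp9, Fas, Trp53, Mdm2, Cdkn1a, Ccng1), every called gene of the other family members, listed genes past the study's threshold at Day 2 or Day 3, and the 3 protein-coding genes most correlated with each member, except items not reported here. Other listed genes named (such as Foxo3, Huwe1, Atf4, Fbxw7, Tnfrsf1a, Diablo, Mdm4 and Sesn1) were chosen after their values were seen. Of 54532 entries, 1 repeated Ddit3 entry was left out. No library pair had identical values (0 pairs). Same-numbered mice were not paired: in no comparison did all 4 number pairs correlate over 0.1. Between the sexes at Day 0, 3 of the 4 pairs did, and what those mice share was not tested.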

Additional observations from a re-analysis of the deposited data

Results flagged for a closer look

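In 5 of the 80 groups of 4 mice (10 genes in 8 groups) 1 mouse stood far from the other 3 by Dixon's test, and chance would give about 1 in 20 groups. Pmaip1 measured 21.1 CPM in female Day 0 mouse 4, where the other 3 measured 6.91 to 7.72 CPM. Pmaip1 measured 15.1 CPM in male Day 3 mouse 1, against 10.4 to 11.1 CPM. Bak1 measured 19.4 CPM in male Day 2 mouse 4, against 9.74 to 10.5 CPM, and 22.5 CPM in female Day 2 mouse 1, against 14.3 to 15.4 CPM. Bcl2 measured 6.77 CPM in female Day 2 mouse 1, against 9.20 to 9.61 CPM. No explanation was tested for these.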

How the results depend on the processing

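No called value of a member changed sign in any alternative. Of 3680 values of the members, 3469 kept their side of the threshold, 94 lost it and 117 gained it, while 195 of 2971 values that were not called differed in sign. The listed genes outside the members were not part of this count. Counts of members are more fragile, and the cause of their moves was not tested. DESeq2's Wald test called 4 members in males at Day 2 (16.3% of all genes in the same fit), 3, 3 and 2 in females at Day 2, Day 3 and Day 5 (11.1%, 17.5% and 3.94%), 5 over both sexes at Day 5 (22.2%), 3 between the sexes at Day 3 (22%) and 1 at Day 5 (5.6%). Its median over all genes stood up to 0.237 from 0, in males at Day 5. Without a filter on low counts the calls were 1 and 3 in males at Day 2 and Day 3 (1.13% and 8.62% of all genes), 3, 1 and 1 in females (3.41%, 3.23% and 0.625%) and 3 over both sexes at Day 2 (13%). Asking for 10 counts in every library gave 3 and 3 in females at Day 2 and Day 3 (6.66% and 12.2%). A single fit over all 8 groups gave 2 in males at Day 3 (19.5%) and 2 from Day 3 to Day 5 (25.7%), 3, 3 and 2 in females (21.8%, 23.4% and 10.9%), 5 over both sexes at Day 5 (35.9%), 0 and 1 between the sexes at Day 3 and Day 5 (0.988% and 9.69%), and 1 for the interaction at Day 5 (7.55%). limma voom with sample quality weights called 5 in males at Day 2 (46.4%), 6, 6 and 5 in females (50.3%, 47.9% and 17.6%), 6 over both sexes at Day 5 (33.6%), 7, 7 and 5 between the sexes at Day 2, Day 3 and Day 5 (19.3%, 43.0% and 29.8%), and 2, 1 and 2 for the interactions (10.6%, 12.1% and 32.6%). The study's threshold of 1.5 as well left 0 in males at Day 2 and Day 3, 1 in males at Day 5, 0 from Day 3 to Day 5, 0, 0 and 1 over both sexes, and 0 between the sexes at Day 3.

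Leaving out 1 mouse gave 0 to 3, 0 to 6 and 1 to 3 members in males at Day 2, Day 3 and Day 5, 0 to 3, 0 to 4 and 0 to 3 in females, and 4 to 6, 6 to 6 and 3 to 5 over both sexes. It gave 2 to 5 in males from Day 3 to Day 5, 0 to 2, 1 to 7 and 0 to 1 between the sexes at Day 2, Day 3 and Day 5, 0 to 1 for the interaction at Day 5, and 0 in the other comparisons. The replicate block, which takes the mouse number as a pairing, gave 0, 0 and 1 in males (0.0312%, 0.566% and 13% of all genes), 0 in females at Day 2 (0.314%), 3 over both sexes at Day 2 (23.3%) and 2 between the sexes at Day 3 (17.6%), and moved no other count by over 1.5 times. Same-numbered mice correlated at −0.415 to 0.481, and in no comparison did each mouse correlate best with its own number. Between the sexes at Day 0, however, 3 of the 4 pairs correlated over 0.1. There 3 of the 4 males correlated best with the female of their own number. What these Day 0 mice share was not tested, and the fits without the block treat all mice as unrelated. Day 5 libraries with few counts outside the mitochondrial genome (3780528 at the lowest) limit the precision of the low members there.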
